A study of Drosophila melanogaster with 8 samples.

Results

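In *chico* heterozygotes, binding of the forkhead transcription factor dFOXO was read from 1331 genomic regions, of 2094 regions listed for the series. The members are all regions that the authors listed for this genotype, taken once per distinct position, and the list pairs them with 2042 genes. For each region the tags of the dFOXO ChIP were compared with the tags of the input DNA. A tag is an aligned sequencing read.

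The 4 samples behind these regions came from whole adult females, 15 days old and heterozygous for a mutation of *chico*, with 200 to 250 flies pooled per sample. Of these, 2 held DNA precipitated with an affinity-purified anti-dFOXO antibody and 2 held input DNA, taken before precipitation. Input DNA was the only control, and no ChIP from wild-type flies was among the samples analysed here. The series holds the same kind of samples from flies whose insulin-producing cells had been ablated.

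*chico* encodes the insulin receptor substrate, the adaptor that passes the signal of the activated insulin receptor on to phosphatidylinositol 3-kinase. Downstream, the kinase PDK1 activates the kinase Akt. Akt phosphorylates dFOXO and keeps it in the cytoplasm, so that dFOXO enters the nucleus when insulin signaling is low. There it binds DNA near genes of growth, metabolism and stress resistance, and in flies it is known for its part in the long life of insulin mutants.

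The authors had joined the reads of both replicates before calling regions, leaving 1 value of ChIP and 1 of input for every region. The input tags had been multiplied by a factor between 0.847 and 0.881, depending on the chromosome arm, to match the ChIP library. The ratio given below is ChIP tags over scaled input tags, with an exact 95% interval. Each region was also given a one-sided exact binomial p, adjusted by the Benjamini-Hochberg method over the 26819 candidate regions of the peak caller. A region is called passing where its adjusted p is at most 0.01. Ranks were taken among listed regions only, and unlisted candidates would fill some of the places between. This can raise an adjusted p and lower the number of passing regions. Since the regions had been listed for an excess of ChIP tags in the same libraries, this p is not independent evidence of binding. It covers counting error alone, with no spread between flies.

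Few of the regions stood well above the input. Of the 1331 regions, 36 passed (2.7%), and these were paired with 45 genes. Another 781 regions had an unadjusted exact p under 0.05 without passing, which made 817 regions (61.4%) under that limit in all. The other 514 regions (38.6%) had an unadjusted exact p of 0.05 or higher and are called weak here. Over all regions the median was 685 ChIP tags against 617 scaled input tags, a ratio of 1.10. At the median total of 1300 tags per region, a ratio of 1.10 was the lowest that gives an exact p under 0.05. The scaling of the input weighs on all of these counts. With input tags lowered or raised by 5%, 142 or 24 regions passed.

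The passing regions were chosen by these tags, so their tags are given as a description. Their median ratio was 1.48 (range 1.22 to 2.52), against 1.12 for the regions between the thresholds and 1.08 for the weak regions (range 1.07 to 1.11). Of the 36 passing regions, 24 had fewer than 467 scaled input tags, the lowest number seen in any region that did not pass. They were also narrow, with a median width of 723.5 bp, against 1487 bp between the thresholds and 1315.5 bp in the weak regions. Per kb of region, passing regions had a median of 750.4 ChIP and 487 input tags, regions between the thresholds 486 and 430, and weak regions 490 and 453. Input tags per kb were thus also highest in the passing regions. Across all 1331 regions, however, the ratio was weakly and inversely related to input tags per kb in ranks (Spearman's correlation -0.217, Pearson's r = 0.0273). ChIP and input tags per kb were closely related (Spearman's correlation 0.92, Pearson's r = 0.797), and the reason was not tested. The ratio was also inversely related to region width (Spearman's correlation -0.145, Pearson's r = -0.226). Input tags are the denominator of the ratio, and regions were listed for an excess of ChIP tags. The relations of the ratio and of ChIP to input tags, and the widths of the passing regions, are thus given as a description only.

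**Figure D1:**
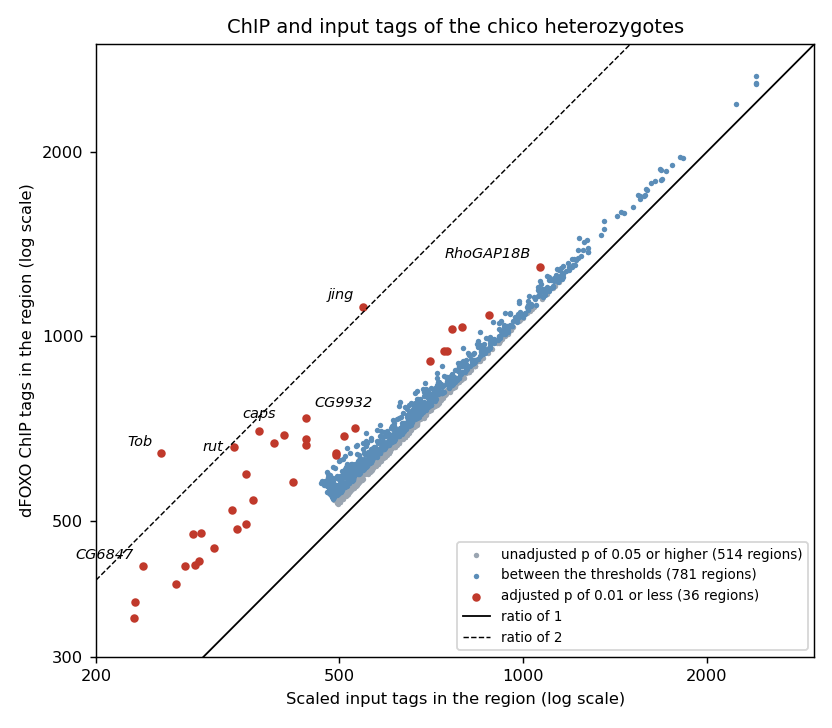
dFOXO ChIP tags (y axis, log scale) against scaled input tags (x axis, log scale) for the 1331 regions, 1 point per region, with lines at ratios of 1 and 2. The 36 passing regions (red) reach a ratio of 2.52 at *Tob*, while the weak regions (grey) keep between 1.07 and 1.11.

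The regions with the 10 largest ratios lay at named genes such as *Tob*, *jing*, *rut*, *caps*, *cv-2*, *lea* and *LpR2*. At the top was *Tob* (FBgn0028397), a member of the Tob/BTG family of antiproliferative proteins. Its region (X, 15985348 to 15985924) carried 644 ChIP tags over 256 input tags, a ratio of 2.52 (2.17 to 2.92, adjusted exact p = 1.88e-35). The interval of *Tob* overlapped that of *jing* and *rut*, and no others among the passing regions. *jing* (FBgn0086655) encodes a zinc finger transcription factor of the nervous system and trachea. With 1118 ChIP and 547 input tags (2R, 2388975 to 2390108), its ratio was 2.04 (1.84 to 2.27, adjusted exact p = 4.36e-41), and its 571 excess tags were the most of any region. The body of *jing* held 2 more listed regions, at a ratio of 1.12 each. *rut* (FBgn0003301), the calcium- and calmodulin-activated adenylyl cyclase needed for learning, had 660 ChIP and 337 input tags (X, 14719826 to 14720463) and a ratio of 1.96 (1.72 to 2.24, adjusted exact p = 3.53e-21).

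*caps* encodes a transmembrane protein with leucine-rich repeats that acts in cell recognition. Its region (3L, 13221439 to 13222128) had 701 ChIP and 370 input tags, a ratio of 1.89 (1.67 to 2.15, adjusted exact p = 9.47e-21). *lea*, also known as *robo2*, encodes a receptor for the axon guidance cue Slit, and its region (2L, 1420170 to 1420813) had 596 ChIP and 352 input tags, a ratio of 1.69 (1.48 to 1.94, adjusted exact p = 3.5e-12). Between these lay *cv-2*, the extracellular BMP-binding protein crossveinless 2. It had 690 ChIP and 406 input tags (2R, 17266273 to 17267295), a ratio of 1.70 (1.50 to 1.93, adjusted exact p = 1.84e-14). *LpR2* encodes a lipophorin receptor, of the LDL receptor family, that takes up lipid from the blood. Its 475 ChIP and 288 input tags (3R, 21565895 to 21566508) gave a ratio of 1.65 (1.42 to 1.92, adjusted exact p = 1.6e-08). The other 3 regions among the top 10 lay at *CG6847* (422 ChIP and 239 input tags, ratio 1.77), *CG32521* (669 and 391, ratio 1.71) and *CG9932* (736 and 441, ratio 1.67). Each of these 10 regions covered the 5' end of its gene.

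Regulators of signaling and of metabolism were also among the passing genes. The region paired with *puc*, the phosphatase that turns down JNK signaling, and with *CG7900*, had 478 ChIP and 297 input tags, a ratio of 1.61 (1.39 to 1.87). *dally*, a glypican that binds Wnt, BMP and Hedgehog ligands at the cell surface, had 369 ChIP and 232 input tags, a ratio of 1.59 (1.35 to 1.88). *Pfrx* encodes the bifunctional enzyme that sets the level of fructose 2,6-bisphosphate and thereby of glycolysis, and its ratio was 1.54 (679 and 442 tags). The intervals of these regions overlapped widely, so that their order is not resolved by the tags. *bnl*, the FGF ligand that guides tracheal branches, had a ratio of 1.38 (579 and 421 tags). *Pk61C*, which encodes PDK1 of the insulin pathway itself, had 688 ChIP and 509 input tags and a ratio of 1.35 (1.20 to 1.52, adjusted exact p = 0.000171). *IP3K1*, an inositol trisphosphate 3-kinase, had a ratio of 1.29 (911 and 704 tags).

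The passing genes included transcription factors of development. *esg*, a Snail-family repressor that maintains intestinal stem cells, had 485 ChIP and 340 input tags, a ratio of 1.43 (1.24 to 1.64). *h*, the pair-rule repressor hairy, had 1027 ChIP and 766 input tags, a ratio of 1.34 (1.22 to 1.47).

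Genes of muscle, membrane transport and the cytoskeleton were also among the passing genes. *wupA*, troponin I of the contractile filament, had 540 ChIP and 361 input tags, a ratio of 1.50 (1.31 to 1.71). *blow*, needed for myoblast fusion, shared a region with *scra* (anillin) and *CG1360*, at a ratio of 1.46 (395 and 270 tags). The sodium-calcium exchanger *Calx* had a ratio of 1.45 (451 and 312 tags), the NMDA receptor subunit *Nmdar2* of 1.26 (945 and 751 tags) and the tetraspanin *Tsp42Ef* of 1.27 (945 and 744 tags). *RhoGAP18B*, a GTPase activating protein, had the lowest ratio of the passing regions, 1.22 (1.12 to 1.32), from the most tags, 1299 and 1067. A region shared by *ctp*, the dynein light chain, and the phosphatase gene *Pp2C1* had a ratio of 1.51 (422 and 280 tags).

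Of the rest, *osk*, which directs assembly of the germ plasm, had a ratio of 1.46 (424 and 291 tags). *Oda*, the antizyme that lowers ornithine decarboxylase and polyamines, shared its region with the chaperonin gene *Cct5* at a ratio of 1.46 (430 and 295 tags). Further passing regions lay at *CG15684* (ratio 1.56), *l(1)G0320* with *CG32700* (1.51), *CG34354* (1.50), *CG3764* (1.40), *CG31797* (1.31), *CG8547* (1.30), *CG9896* (1.29) and *CG11899* with *CG14509* (1.23). In all, 15 of the 45 genes had no name beyond a CG number. Among the chromosome arms, X held 10 of the passing regions (3.64% of its 275), 3R 9 (2.26% of 399), 2R 7 (2.88% of 243), 2L 5 (1.98% of 253) and 3L 5 (3.29% of 152), while the 9 regions on chromosome 4 had ratios of up to 1.14.

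**Figure D2:**
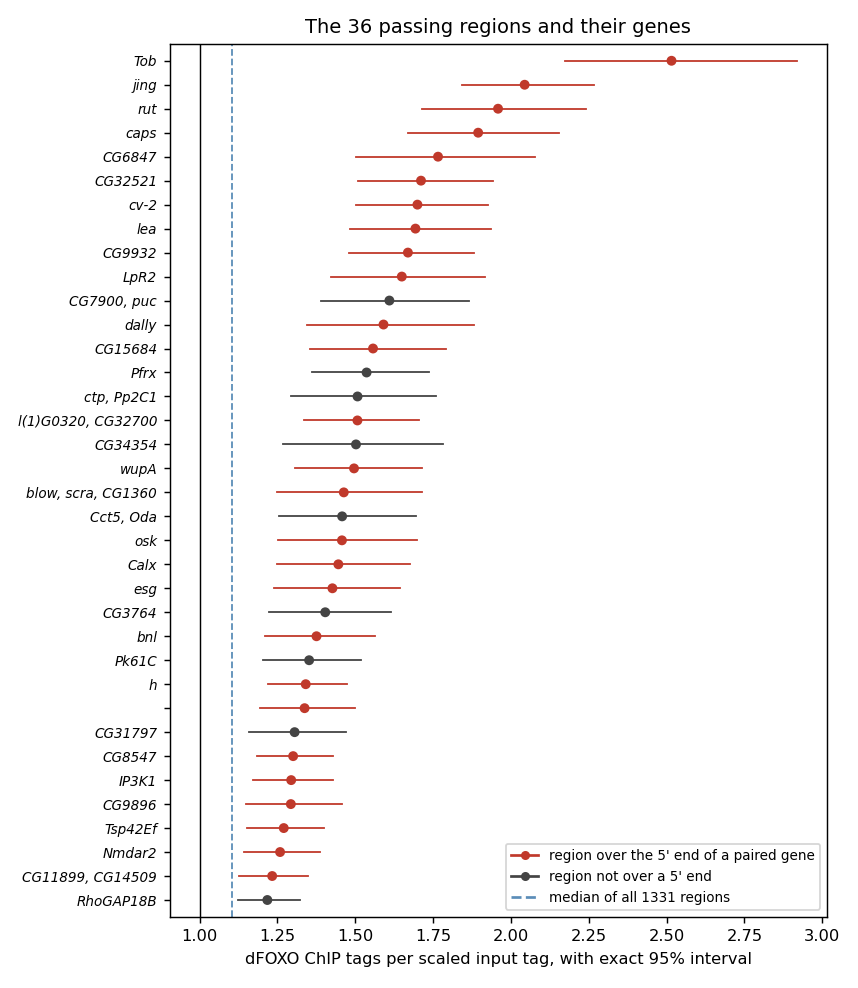
Ratio of dFOXO ChIP to scaled input tags (x axis) at the 36 passing regions, labelled by their paired genes (1 region is left without a label), with exact 95% intervals from the tags as lines; the dashed line is the median of all regions, 1.10. The intervals of *Tob* and *jing* lie above those of most regions, and the lowest region, at *RhoGAP18B*, has an interval of 1.12 to 1.32.

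The passing regions differed from the others in where they lay on genes. In 27 of the 36 (75%, 95% Wilson interval 58.9 to 86.2%), the region covered the 5' end of a paired gene, the end where transcription starts. The same was true of 200 of the 781 regions between the thresholds (25.6%, 22.7 to 28.8%) and of 102 of the 514 weak regions (19.8%, 16.6 to 23.5%). The interval of the passing regions lay above those of the others. Such intervals take each region as a separate draw, although all came from the same pooled ChIP and input, so they only describe the shares. Position was not used in choosing the passing regions, but regions are not replicates, so no p is given. The share was larger in bands of larger ratio, from 21.2% of the 641 regions below a ratio of 1.1 and 24.6% of the 615 regions from 1.1 to 1.2 to 44.4% of 45 regions from 1.2 to 1.3. It was 69.2% of the 13 regions from 1.3 to 1.5 and 76.5% of the 17 regions at 1.5 or more.

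Narrow regions showed the same order of shares. Among regions of up to 1000 bp, 19 of 25 passing regions (76%, 56.6 to 88.5%) covered a 5' end, against 9 of 24 between the thresholds (37.5%, 21.2 to 57.3%) and 6 of 22 weak regions (27.3%, 13.2 to 48.2%). The intervals of the passing regions and those between the thresholds met in this smaller set. The number of passing regions also bears on the share. With adjustment over the listed regions alone, 85 regions passed and 50.6% of them covered a 5' end.

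**Figure D3:**
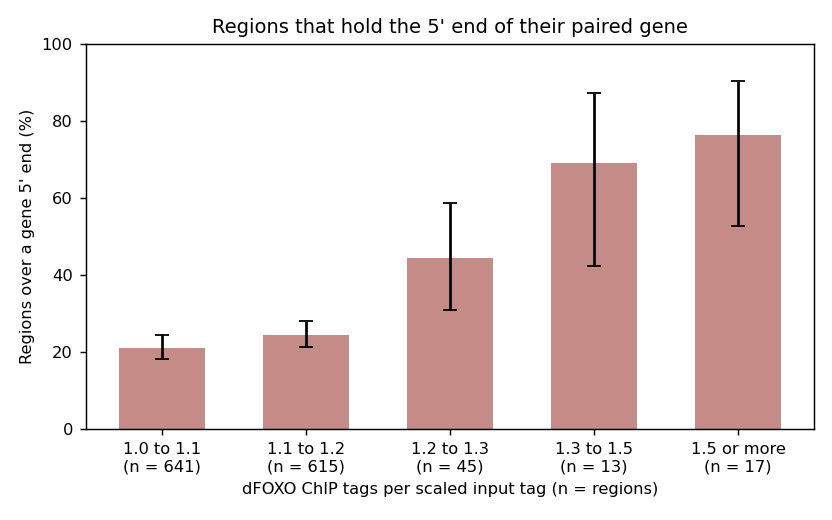
Share of regions (y axis, percent) that hold the 5' end of a paired gene, by band of the ratio of ChIP to scaled input tags (x axis); bars are shares, lines are 95% Wilson intervals and n is the number of regions. The share is 21.2% in the lowest band and 76.5% in the highest.

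The midpoints showed the same contrast on a finer scale. The midpoint of a passing region was 214.5 bp away from the nearest listed 5' end in the median, against 1683 bp between the thresholds and 1531.5 bp for weak regions. Of the 36 passing midpoints, 17 fell in the 500 bp before a 5' end and 9 in the 500 bp after it. Midpoints of weak regions were most frequent from 500 to 1000 bp inside the gene, with 96 of 514 there, against 10 in the 500 bp before the 5' end. Regions between the thresholds had 130 of 781 midpoints from 500 to 1000 bp inside the gene and 40 in the 500 bp before its 5' end. Among regions that did cover a 5' end, the median midpoint lay 35 bp before it in the passing regions, but 424 bp and 387 bp inside the gene in the other classes. At *caps* and *CG6847* the midpoint was 5.5 bp and 8 bp before the 5' end, at *LpR2* 14.5 bp, at *dally* 35 bp and at *lea* 42.5 bp.

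**Figure D4:**
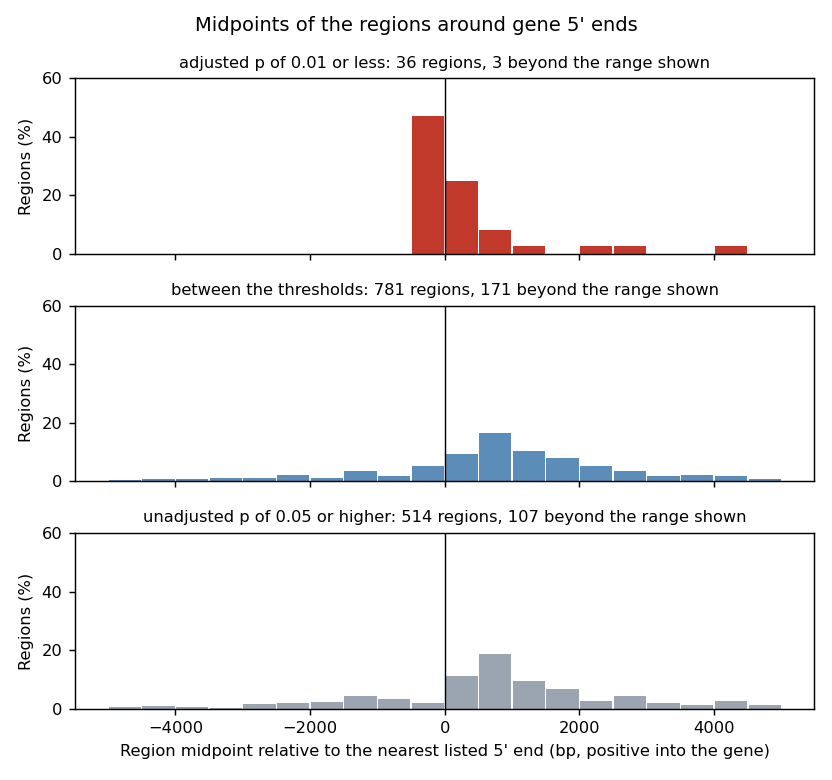
Share of regions (y axis, percent) by distance of the region midpoint from the nearest listed 5' end (x axis, bp in bins of 500 bp, positive into the gene), for passing regions, regions between the thresholds and weak regions. The highest bar of the passing regions, 47.2%, is the bin just before the 5' end, and those of the other classes lie from 500 to 1000 bp inside the gene.

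Of the 9 passing regions away from a 5' end, most still lay on the 5' side of a gene. The midpoint was 421.5 bp from the nearest 5' end at *ctp* and *Pp2C1*, 678.5 bp at *puc* and *CG7900*, 1196.5 bp at *Oda* and *Cct5*, 2054 bp at *Pk61C*, 2748.5 bp at *Pfrx* and 11381.5 bp at *RhoGAP18B*. At *CG34354* it was 48528.5 bp inside the gene, on its 3' side. *CG3764* lay 7935 bp from its region, and *CG31797* was paired with a region beyond its 3' end. The list places 33 of the 36 passing regions (91.7%) inside a gene on its 5' side, against 45.7% between the thresholds and 42.2% of weak regions. The label includes regions that reach across the 5' end. The midpoint itself lay inside a listed gene in 17 of 36 passing regions (47.2%), against 84.1% between the thresholds and 87.0% of weak regions. Regions on the 3' side inside a gene were 1 of 36 passing regions (2.78%), against 37.0% and 38.1% in the other classes. The 5' end used here is that of the whole gene as listed, so a start site further inside was not counted.

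The pairing of regions with genes has limits of its own. Each of the 2042 genes was listed with 1 region only, and for 126 regions (9.47%) the list held no gene of the first rank for that region. In 52 of these (41.3%) the midpoint lay inside a gene that was listed with another region. The list leaves out candidates from within the ranking, as its 1331 regions carry ranks of up to 5129. A region was paired with 1 gene in 29 of 36 passing regions (80.6%), in 62.9% of those between the thresholds and in 56.0% of weak regions.

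Near the threshold the genes differed little from each other. The last regions to pass were those at *CG11899* (1085 and 880 tags, ratio 1.23), *CG31797* (646 and 495, ratio 1.31) and *CG9896* (640 and 495, ratio 1.29, adjusted exact p = 0.00697). The next was at *vri*, a bZIP repressor of the circadian clock, with 658 and 515 tags, a ratio of 1.28 (1.14 to 1.44) and an adjusted exact p of 0.012. It was followed by *a6* (1449 and 1236 tags, ratio 1.17, adjusted exact p = 0.015) and *CG18437* (780 and 629 tags, ratio 1.24, adjusted exact p = 0.0218). Intervals of the ratios inside and outside the threshold overlapped, and 39 regions with a ratio of 1.2 or more did not pass. Passing also depended on the level taken for the input. Against the median ratio of the listed regions in place of 1, 21 of the 36 regions no longer passed, among them those at *h*, *dally*, *ctp*, *Pk61C*, *IP3K1*, *esg*, *Calx*, *Oda*, *bnl*, *osk* and *Tsp42Ef*. The regions at *Tob*, *jing*, *rut*, *caps*, *cv-2*, *lea*, *LpR2*, *puc*, *Pfrx* and *wupA* passed in both.

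Several genes that have been examined as dFOXO targets, here or in other work, lay in this margin or below it. The set taken here held 14 such genes that were matched to the gene table, of which 6 were listed. It left out most of the candidates that the authors followed up. Of those left out, *cv-2*, *Oda*, *esg*, *Pk61C*, *h*, *Tsp42Ef* and *RhoGAP18B* lay at passing regions, as given above. The others, among them *vri*, *sca*, *Su(z)2* and *wg*, did not. Within the set, *puc* passed, as given above. *Thor* encodes 4E-BP, a repressor of translation whose gene dFOXO is known to activate when insulin signaling is low. It had 695 ChIP and 554 input tags (2L, 3477793 to 3478824) and a ratio of 1.25 (1.12 to 1.41), did not pass (adjusted exact p = 0.0246), and its region covered the 5' end. *CG11299*, the sestrin gene, had 771 and 627 tags and a ratio of 1.23 (1.11 to 1.37, adjusted exact p = 0.0413). *GlyP*, the glycogen phosphorylase that releases glucose from glycogen, had 638 and 512 tags and a ratio of 1.25 (1.11 to 1.40, adjusted exact p = 0.0548). Both regions covered the 5' end of their gene. *dm*, the fly Myc, was 6956 bp from a region with 562 and 498 tags and a ratio of 1.13 (1.00 to 1.28). *srl*, listed as *Spargel*, is the fly PGC-1 homolog and had 777 and 727 tags, a ratio of 1.07 (0.965 to 1.18), on the 3' side of the gene. The other 8 genes, *InR*, *foxo*, *Ilp6*, *Atg8a*, *daw*, *bmm*, *Lip4* and *tobi*, were not among the 2042 listed for this genotype, and tags at them were not analysed here. By ChIP with gene-specific PCR, the authors reported more dFOXO at their candidates, among them *Thor*, *GlyP*, *puc* and *daw*, in both insulin mutants than in wild type. At the *Atg8a* promoter they reported no dFOXO binding.

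The weak regions were close to the input at every gene. The lowest ratio was at *CG8420* (536 ChIP and 502 input tags, ratio 1.07, 0.944 to 1.21). It was also 1.07 at *sdk*, an adhesion molecule of the immunoglobulin superfamily (551 and 516 tags), at the odorant receptor gene *Or45b* (566 and 530 tags) and at the region of *hang* and the annexin gene *Anxb11* (626 and 586 tags). Their intervals all included 1. The weak regions with the most ChIP tags were those at *CG6954* (1226 and 1145), *CG11913* (1208 and 1129), *CG4198* with *TrxT* and *CG15930* (1199 and 1120), *CG12428* with *CG12877* (1172 and 1095) and *Hml*, the hemolectin gene of blood cells (1158 and 1080). At these tag numbers the ratio was also 1.07. Summed over regions, passing regions held 7.37% of the excess of ChIP over input tags on 0.0341 Mb of DNA, and weak regions held 25.3% on 0.711 Mb.

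Functions at these regions were described with gene lists, by how many members were listed at all and how many lay at a passing region. The lists were written with earlier results of these data known, so a share is a description only. Listed genes include those at weak regions and those far from their region, such as *raptor* of the insulin list at 7320 bp. Of 13951 protein-coding genes, 1984 (14.2%) were listed, 1189 of these (59.9%) had an unadjusted exact p under 0.05 and 45 (2.27%) lay at passing regions, with a median ratio of 1.10. Shares listed were highest for the ecdysone response and nuclear receptors (18 of 42, 42.9%), insulin, TOR and FOXO signaling (16 of 38, 42.1%) and developmental transcription factors (53 of 129, 41.1%). Neuronal signaling genes and ion channels (36 of 92, 39.1%) and genes of axon guidance and adhesion (38 of 108, 35.2%) came next. The lowest shares were those of the proteasome (2 of 49, 4.08%), ribosomal proteins (4 of 92, 4.35%), stress response, autophagy and proteostasis (4 of 70, 5.71%) and the mitochondrial respiratory chain (9 of 94, 9.57%). Gene length differed between the lists and followed the shares in part. Median length of the listed genes was 33.4 kb for listed genes of axon guidance and adhesion, 30.5 kb for neuronal genes and 18.0 kb for transcription factors, against 1.20 kb for the proteasome, 1.53 kb for ribosomal proteins and 4.55 kb over all listed protein-coding genes. Insulin genes had a median of 9.16 kb at a share of 42.1%, while Wnt genes had 23.8 kb at 22.2%. The part of gene length in the shares was not tested.

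**Figure D5:**
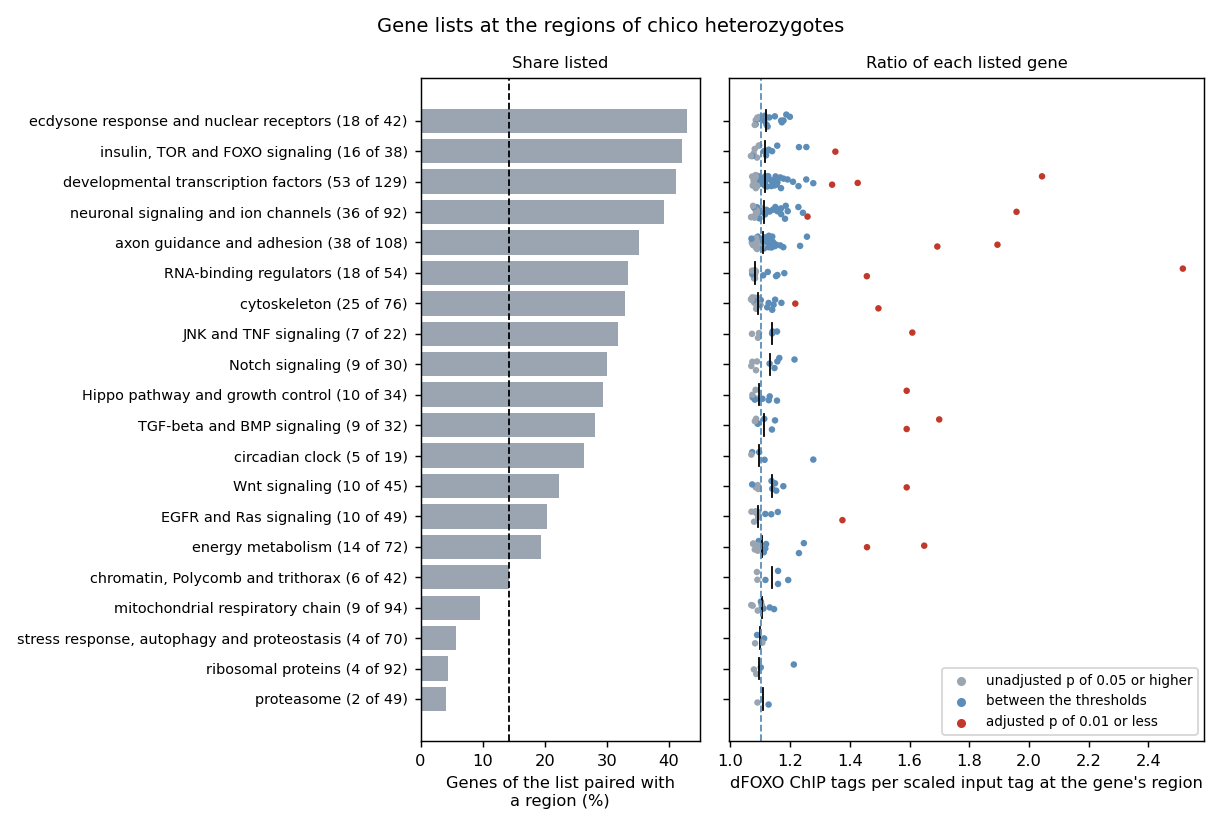
Left, share of each gene list paired with a region (x axis, percent), with the share of all protein-coding genes, 14.2%, as a dashed line. Right, ratio of ChIP to scaled input tags (x axis) at the region of each listed gene, 1 point per gene, with list medians as black bars and the median of all regions, 1.10, as a dashed line; medians of the lists lie between 1.08 and 1.14 and the passing genes (red) have ratios of 1.22 to 2.52.

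Once listed, members of most lists had ratios near those of all regions. Medians ran from 1.08 for RNA-binding regulators to 1.14 for JNK and TNF signaling, Wnt signaling, and chromatin, Polycomb and trithorax genes. Each list had at most 3 passing members. Over all listed protein-coding genes, 2.27% passed and 59.9% had an unadjusted exact p under 0.05. Among RNA-binding regulators, *Tob* and *osk* passed, but 8 of 18 (44.4%) had an unadjusted exact p under 0.05, and the next largest ratio was 1.18, at *glo*. Among developmental transcription factors, *jing*, *esg* and *h* passed and 39 of 53 (73.6%) were under the unadjusted limit. The next were *vri*, then *slou*, a homeobox gene of muscle identity (612 and 488 tags, ratio 1.25), and *emc*, an inhibitor of bHLH factors (716 and 583 tags, ratio 1.23).

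In the signaling lists, passing members were *Pk61C* for insulin, *bnl* for EGFR and Ras, *puc* for JNK, *dally* for Wnt and Hippo, and *cv-2* and *dally* for TGF-β and BMP. Of these, *Pk61C*, *bnl* and *dally* did not pass against the median ratio of the listed regions (adjusted exact p = 0.272, 0.286 and 0.01003), and *bnl* did not with input tags raised by 5% (adjusted exact p = 0.0108). The unadjusted exact p was under 0.05 in 10 of 16 insulin genes, 4 of 10 EGFR and Ras genes, 4 of 7 JNK genes, 7 of 10 Wnt genes and 7 of 9 TGF-β genes. Over all listed protein-coding genes the share was 59.9%, and with so few members these counts do not set a list apart. Of the Wnt genes, *wg*, the Wnt ligand itself, was 2628 bp from a region with 591 and 502 tags, a ratio of 1.18 (1.04 to 1.33). *dlp*, a glypican like *dally*, had 623 and 542 tags and a ratio of 1.15 (1.02 to 1.29). In the Notch list none of the 9 members passed (2.27% did over all listed genes), and 5 of 9 were under the unadjusted limit. The largest ratio there was that of *sca*, a secreted regulator of Notch, at 1.21 (809 and 666 tags), followed by the ubiquitin ligase *neur* at 1.16 (774 and 665 tags).

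Of the 18 listed ecdysone genes none passed (2.27% over all listed genes). An unadjusted exact p under 0.05 was found in 14 (77.8%, against 59.9% over all listed genes), and the median ratio was 1.12. The ecdysone receptor gene *EcR* had 957 and 798 tags, a ratio of 1.20 (1.09 to 1.32, adjusted exact p = 0.0479). *Eip93F*, a target of ecdysone in cell death, had 615 and 518 tags (ratio 1.19), and *tai*, a coactivator of the receptor, 688 and 584 tags (ratio 1.18). None of the 6 listed chromatin genes passed (2.27% over all listed genes), a list too short to tell from that share. Their largest ratios were those of the Polycomb group genes *Su(z)2* at 1.19 (1017 and 852 tags, adjusted exact p = 0.0459), *Psc* at 1.16 (799 and 689 tags) and *Pc* at 1.16 (661 and 570 tags).

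In the energy metabolism list *LpR2* passed, as did *Oda*, which acts on polyamines, and 8 of 14 members were under the unadjusted limit. *Pfrx* was not in that list. After *GlyP*, the largest ratio was that of *Men*, the malic enzyme that supplies NADPH, at 1.23 (589 and 479 tags). In the cytoskeleton list *wupA* and *RhoGAP18B* passed and 13 of 25 were under the unadjusted limit. In the neuronal list *rut* and *Nmdar2* passed and 24 of 36 were under it, with *Rim*, a protein of the presynaptic active zone, next at 1.24 (665 and 535 tags). In the adhesion list *caps* and *lea* passed and 23 of 38 were under it, with *CG14521* next at 1.26 (627 and 499 tags). The share under the unadjusted limit was 59.9% over all listed protein-coding genes, and the counts of these 4 lists lay near it. The lists for ribosomal proteins, the proteasome, the respiratory chain and stress response together held *RpS20* as their largest ratio, 1.21 (839 and 692 tags, adjusted exact p = 0.053), at the 5' end of its gene.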

How the data were processed

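ChIP DNA and input DNA of *chico* heterozygotes were sequenced in 2 replicates each, which the authors pooled before alignment. Base calls were made with CASAVA 1.6 and reads were aligned with Bowtie, per the submitters' processing notes, and regions were called with PeakSeq. The genome build is not given in the sources used here, and positions are those of the deposited list. The deposited ChIP tags are a count per region, without normalization. The deposited input tags are a score, since the authors multiplied them by a factor per chromosome arm and rounded them up. The deposited ratio of ChIP to scaled input served only to recover these factors (quotients within 1e-06 of whole numbers). The authors' p-value and adjusted p-value served only to count the candidate regions, 26819.

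For regions paired with several genes, the entry with the lowest gene rank was kept. ChIP tags were compared with scaled input tags by a one-sided exact binomial test at a probability of 0.5, with Benjamini-Hochberg adjustment, and the test was tested on simulated data. Ranks for the adjustment were those among listed regions. Intervals are exact (Clopper-Pearson) for ratios and Wilson for shares, at 95%, and cover counting error only, as reads are PCR copies without molecular identifiers. Total reads per sample were not used, so depth enters through the tags of each region.

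The members and the gene lists were chosen with earlier results of these data known. Named were the genes of the passing regions (1 region is not reported here), the 3 regions on each side of the threshold, the 5 weak regions of smallest ratio and the 5 with most ChIP tags, 14 genes examined as dFOXO targets, and, from each list, members that passed or had the 3 largest ratios, not all of which are printed. Outside the rule, *slou*, *emc* and *Men* were picked once their values had been seen. Listed genes were matched to 13951 protein-coding genes of the Release 6 gene table by name or CG number, and 2018 of 2042 matched. Its coordinates were not used. Alternatives were the adjustment, the threshold, the input scaling, the null ratio, a minimum of 300 input tags, and the distance to a gene. Tests and intervals were computed with SciPy 1.17.1 and NumPy 2.4.6 under Python 3.11.15, tables with pandas 2.3.3 and figures with Matplotlib 3.10.9.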

Additional observations from a re-analysis of the deposited data

How the results depend on the processing

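No paired analysis was possible because the replicates were pooled before the regions were called, and for the same reason no replicate could be left out. With adjustment over the listed regions alone, 85 regions with 111 genes passed, of which 50.6% covered a 5' end. With input tags lowered by 5%, 142 regions with 189 genes passed (45.8% over a 5' end) and 0 regions kept an unadjusted exact p of 0.05 or higher, so that no share of weak regions could be given. With input tags raised by 5%, 24 regions with 28 genes passed and 1100 were weak, and regions lost included those at *IP3K1*, *bnl*, *Tsp42Ef*, *blow*, *RhoGAP18B* and *Nmdar2*. Against the median ratio of the listed regions in place of 1, 15 regions with 17 genes passed (86.7% over a 5' end) and 1263 were weak, and regions lost included those at *h* (adjusted exact p = 0.0347), *dally* (0.01003), *esg* (0.168), *Pk61C* (0.272), *bnl* (0.286), *osk* (0.168) and *Calx* (0.167). With input tags before scaling, 38 regions passed, and at a threshold of 0.001, 32 passed. All 36 passing regions also passed with input lowered, with input before scaling and with adjustment over listed regions. The 10 regions of largest ratio passed under every alternative that kept them, while a minimum of 300 input tags left out 3 of them, *Tob*, *CG6847* and *LpR2*, by construction. *vri* passed with input before scaling (adjusted exact p = 0.00511), with input lowered and with adjustment over listed regions, and *Thor* and *GlyP* passed in the last 2 of these. With the region centre within 500 bp of a 5' end as the criterion, the share was 72.2% for passing and 13.2% for weak regions. Counting only genes up to 1 kb from their region changed no count of passing list members. Over all listed protein-coding genes, that criterion lowered the genes at passing regions from 45 to 36. Motif shares were not run, as no genome sequence was at hand. At the median of 1300 tags, regions with ratios below 1.10 are weak by definition, and this cutoff moves with depth. The region of *sgg*, with 2396 and 2233 tags, was under the unadjusted limit at a ratio of 1.07 (unadjusted exact p = 0.00863).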

Other observations

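Regions listed for flies with ablated insulin-producing cells overlapped 2 of the 36 passing regions of *chico* heterozygotes. At *esg* the *chico* ratio was 1.43, and the overlapping region after ablation had 1817 ChIP and 1813 scaled input tags, a ratio of 1.00 (0.939 to 1.07). At *jing* the *chico* ratio was 2.04, and the wider region after ablation (7912 bp) had 2967 and 2891 tags, a ratio of 1.03 (0.975 to 1.08). The regions differ in width between the lists, and the difference was not tested. In all, 6 of the 45 genes of passing regions were also listed after ablation, namely *CG32700*, *CG9896*, *dally*, *esg*, *jing* and *lea*. The shares of all listed regions and genes that recurred after ablation are not given here. These counts therefore do not set the passing regions apart from the rest.

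Most listed genes held few regions by position. Of the 2042 genes, 25 held the midpoints of 2 or more listed regions, and none held 4 or more. No gene was listed more than once, so a further region inside a gene appears only where it was paired with another gene. The list also leaves out candidates. These counts therefore describe the list, and not how many regions dFOXO binds per gene.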
